A study of Mus musculus with 6 samples.

Results

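The miR-26 family was examined through the 2 guide-strand probes that its members have in a NanoString profile of mouse liver, mmu-miR-26a (MIMAT0000533) and mmu-miR-26b (MIMAT0000534). These were taken by their names from 566 probes for mouse miRNAs among 599 probes in all. In the NanoString assay miRNAs are tagged and captured by probes, and the captured molecules are counted singly without amplification. Some probes bear the joint name of more than 1 miRNA, while each miR-26 member has a named probe of its own. No other probe on the panel was named for miR-26, so the opposite strands of its hairpins were not measured.

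RNA was taken from fresh frozen liver of 3 Apcfl/fl and 3 Apc+/+ mice, all on the C57Bl/6 background. The Apcfl/fl mice carried a hypomorphic Apc allele in both copies, and their livers were labelled hepatocellular carcinoma (HCC), a tumour with an active Wnt/β-catenin pathway in this model. The Apc+/+ livers carried the normal gene and were labelled healthy. No age, sex or share of tumour in the sampled tissue is given in the sources used here. The p-values set a difference against the spread between these 6 samples, which edgeR estimates with help from all tested miRNAs. Because whole liver was profiled, fewer cells that hold a miRNA and less of it per cell cannot be told apart.

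MiRNAs guide the silencing complex to mRNAs that pair with their seed, bases 2 to 8 from the 5′ end. The miR-26 family is abundant in normal liver and is known as a tumour suppressor there. It is described as low in human HCC, it lowers cyclins and the histone methyltransferase Ezh2, and its delivery slowed liver tumours in mice. The comparison asked whether the pair was lower in livers whose tumours carry an active Wnt pathway.

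The mature sequences are shown because both members carry 1 seed and differ only outside it, which sets what the probes can tell apart. Both members were matched to RefSeq entries of build GRCm38.p6, and the seed is in capitals.
mmu-miR-26a-5p: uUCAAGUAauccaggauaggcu
mmu-miR-26b-5p: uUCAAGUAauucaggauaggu
The seed UCAAGUA pairs with UACUUGA in a target. Among 1679 names of mature mouse miRNAs in that table, these 2 alone carried it, and they came from 3 hairpins. Counted from 1 at the 5′ end, with the base of miR-26a first, the pair differed by C11U and C21U, and miR-26a was 1 base longer (22 against 21 bases). The other 19 of the first 21 positions were identical. The next closest mature sequence outside the family differed from miR-26a at 8 of those 21 positions when laid side by side without gaps. Whether the probe of 1 member also captured the other was not tested.

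The hairpins are shown because miR-26a has a pair of sources that end in the same guide strand, so its count is the sum over both genes. The guide strand is in capitals.
Mir26a-1 (chr9:119031796-119031885, plus strand, GRCm38.p6): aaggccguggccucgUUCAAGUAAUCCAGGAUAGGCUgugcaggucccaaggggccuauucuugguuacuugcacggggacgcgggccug
Mir26a-2 (chr10:126995530-126995613, plus strand, GRCm38.p6): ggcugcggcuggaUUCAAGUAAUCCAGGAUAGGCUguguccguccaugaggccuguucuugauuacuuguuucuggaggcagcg
Mir26b (chr1:74394310-74394394, plus strand, GRCm38.p6): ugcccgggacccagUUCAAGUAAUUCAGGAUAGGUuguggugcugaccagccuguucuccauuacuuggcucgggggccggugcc
In the RefSeq gene table Mir26a-1 lay inside the span of Ctdspl, Mir26a-2 inside Ctdsp2 and Mir26b inside Ctdsp1, each on the strand of its host. These hosts are a family of small phosphatases that act on the tail of RNA polymerase II. Host transcripts are not measured by this panel, and whether the hairpins are intronic was not examined.

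The livers held 82942 to 133331 counts on mouse miRNAs. One probe, miR-720, accounted for 33% of all counts from Apc+/+ liver 3, while elsewhere its part ran from 15.7% to 25.7%. Counts were scaled by TMM factors (0.655 to 1.25) computed over the 174 miRNAs with a mean of at least 20 counts. Background was judged from 33 probes for viral miRNAs, whose mean plus 2 SD stood between 13.1 and 27.8 counts. The hepatocyte miRNAs miR-122, miR-192 and miR-194 were above this limit in every liver.

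Both members of the miR-26 family were present in every liver, and neither differed between the genotypes by more than the spread between mice. MiR-26b, the more heavily counted member, was at 535 ± 46.6 normalised counts in Apc+/+ and 575 ± 152 in Apcfl/fl liver (SD, n = 3 each). MiR-26a was at 130 ± 26 and 117 ± 26.4 normalised counts (SD, n = 3 each). In the edgeR fit no tested miRNA had an adjusted p-value under 0.05 (0 of 174, or 0%), the smallest being 0.0559, against 29 with DESeq2. At an unadjusted p-value under 0.05 the fit held 43 of 174 miRNAs (24.7%), and neither member was among them.

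As deposited, miR-26a had 99.33, 128.33 and 86.33 counts in livers 1, 2 and 3 of the Apc+/+ mice. In the Apcfl/fl livers they were 153.33, 119.33 and 133.33. Apcfl/fl liver 2 lay under Apc+/+ liver 2, so the genotypes overlapped before any scaling. The lowest count, 86.33, was 6.02 times the viral probe limit of its liver, and over the 6 livers this multiple ran from 4.98 to 9.11. Counting error alone allowed 68.8 to 106 for the lowest count and 130 to 179 for the highest (exact Poisson 95% intervals, which cover counting error only). The deposited values are not whole, so intervals from counting error are approximate here and below.

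After scaling, miR-26a stood at 125, 158 and 106 normalised counts in Apc+/+ mice and at 138, 126 and 87.5 in Apcfl/fl mice. Apc+/+ liver 2 was the highest and Apcfl/fl liver 3 the lowest, so the genotypes overlapped. Of the other 4 livers, both Apcfl/fl livers lay above both Apc+/+ livers. On the log2 scale the fitted change was -0.14 ± 0.30 (standard error), with a 95% confidence interval from -0.85 to 0.56. The adjusted p was 0.79 (Benjamini-Hochberg, edgeR). As a fold this interval runs from 0.556 to 1.47, so a 2-fold change in either direction lies outside it. The two-sided exact permutation test of the log2 normalised counts gave p = 0.7, where 0.1 is the smallest p that 3 mice against 3 allow. The coefficient of variation between mice was 20.1% in Apc+/+ and 22.5% in Apcfl/fl liver, against 9.13% from counting at the mean count of this probe.

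For miR-26b the counts as deposited were 466, 408 and 420 in Apc+/+ mice. They were 554, 708 and 726 in Apcfl/fl mice. Every Apcfl/fl liver was thus above every Apc+/+ liver before scaling. All of these counts were at least 17.5 times the viral probe limit of their liver.

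This separation was lost on scaling. MiR-26b then stood at 588, 501 and 516 normalised counts in Apc+/+ mice and at 498, 750 and 477 in Apcfl/fl mice. Apcfl/fl liver 2 was far above the rest, and the other Apcfl/fl livers lay below all Apc+/+ livers. Its fitted log2 change was 0.10 ± 0.23 (standard error), with a 95% confidence interval from -0.45 to 0.66 and an adjusted p of 0.80 (edgeR). The interval runs from 0.731-fold to 1.58-fold, and the two-sided exact permutation test gave p = 1. Over the whole panel, 58 of the 174 tested miRNAs (33.3%) had normalised counts that did not overlap between the genotypes, and neither member of the family was one of them. The spread of miR-26b was 8.72% of the mean in Apc+/+ and 26.4% in Apcfl/fl liver, against 4.28% from counting.

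**Figure D1:**
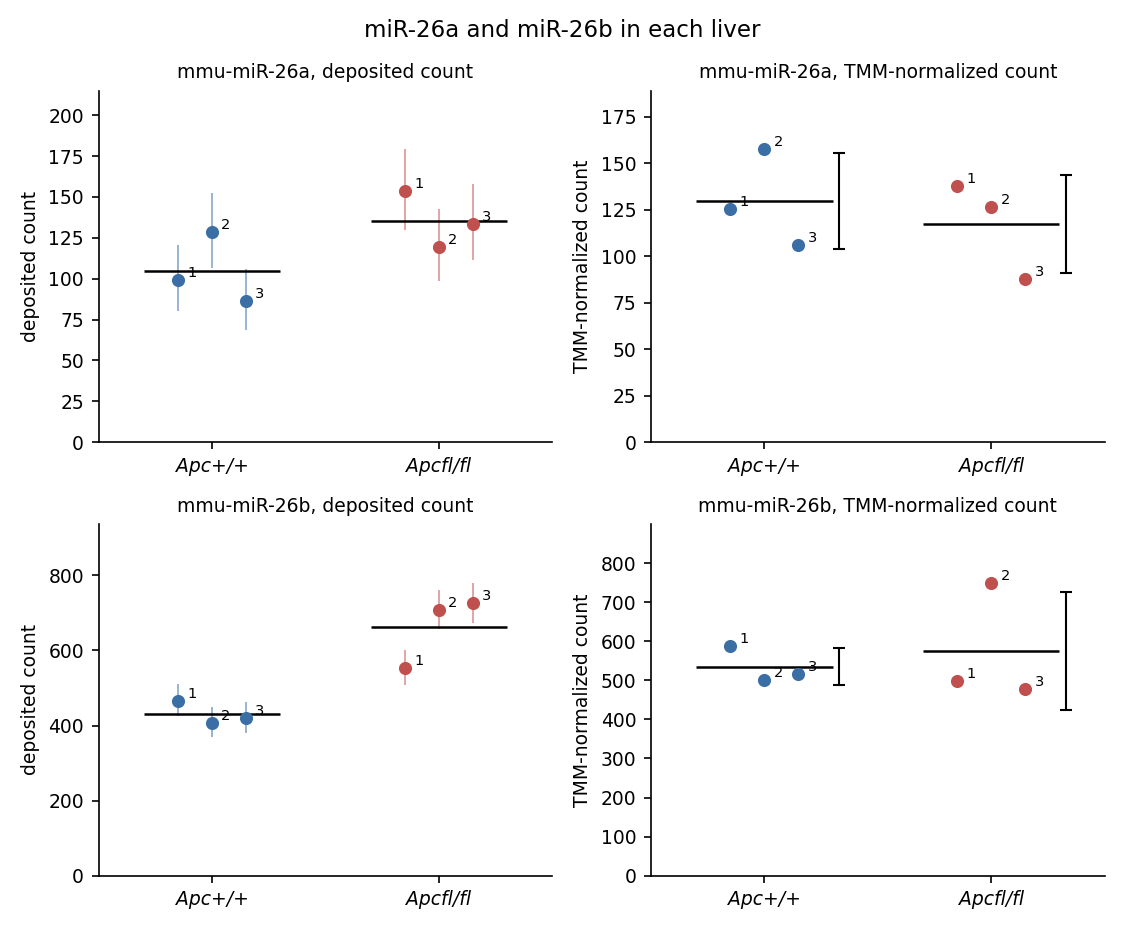
Counts of miR-26a (top) and miR-26b (bottom) in each liver, as deposited (left, with exact Poisson 95% intervals) and after TMM scaling (right, with the SD of 3 livers as a bar beside the points). Points are numbered by replicate and the horizontal lines are means. The deposited counts of miR-26b separate the genotypes, while the normalised counts of both members overlap.

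The fold changes of the pair were among the smaller ones on the panel. In order of absolute log2 fold change from the smallest, miR-26b was the 13th and miR-26a the 22nd of 174. Over the whole set of tested miRNAs the median was 0.01 on this scale, with 86 below and 88 above 0. Both members were also measured with better than average precision. The standard errors of 0.30 and 0.23 compare with a median of 0.44 over the tested miRNAs, and the 95% interval stayed within 2-fold either way for 27 of them (15.5%), the 2 members included.

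**Figure D2:**
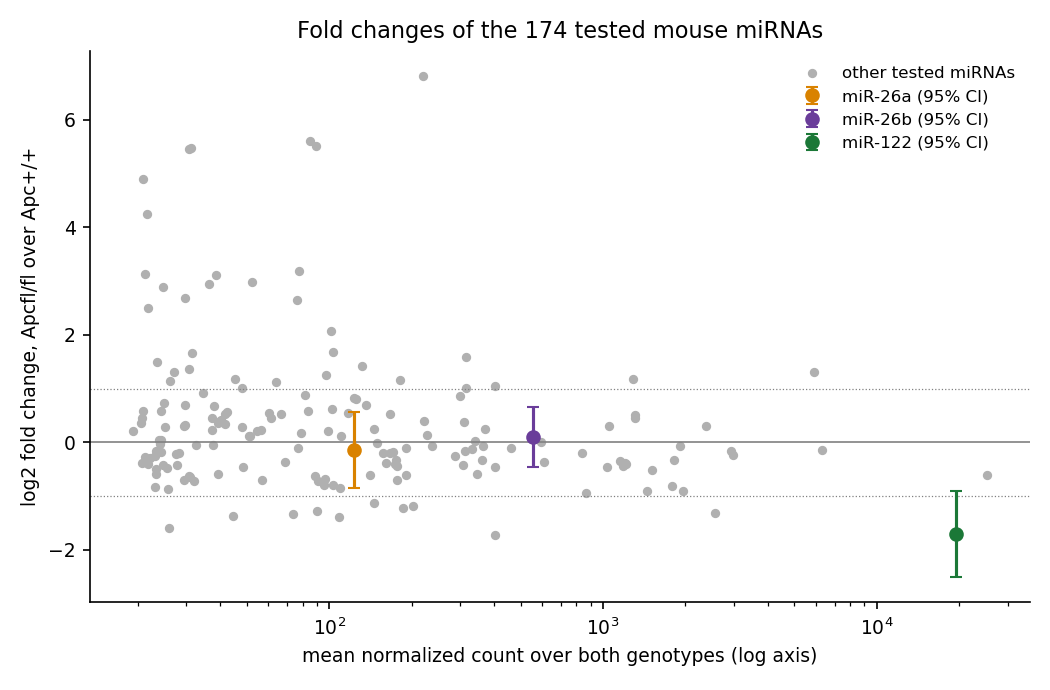
Log2 fold change of each of the 174 tested miRNAs (Apcfl/fl over Apc+/+) against its mean normalised count on a log axis. Bars on miR-26a, miR-26b and miR-122 are 95% confidence intervals, dotted lines mark 2-fold changes, and the intervals of both miR-26 members lie between those lines while miR-122 is at -1.71.

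The sign of these small values depended on how the livers were scaled. With the total mouse miRNA count as library size the log2 fold change was 0.22 for miR-26a and 0.46 for miR-26b. That scaling moved the whole set, with its median at 0.45. Set against the median, miR-26a was at -0.23 and miR-26b at 0.01, beside -0.16 and 0.09 with TMM scaling. With no filter on counts, miR-26a was at 0.35 and miR-26b at 0.59 relative to the median. MiR-26b was at -0.04 when the 100 most abundant miRNAs set the scale, where the median was -0.10. The adjusted p-value of miR-26a ran from 0.63 to 0.99 over 16 alternatives and that of miR-26b from 0.26 to 0.91. The 2-fold bound was less firm for miR-26a. Its interval stayed within 2-fold in 6 of the 14 alternatives that gave one, against 11 of 14 for miR-26b, and with the total count the intervals reached 1.17 and 1.15.

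Single livers set the sign as well. Without Apc+/+ liver 2 the log2 fold change of miR-26a was 0.15, and without Apcfl/fl liver 3 it was 0.0068. For miR-26b it was -0.08 without Apcfl/fl liver 2.

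**Figure D3:**
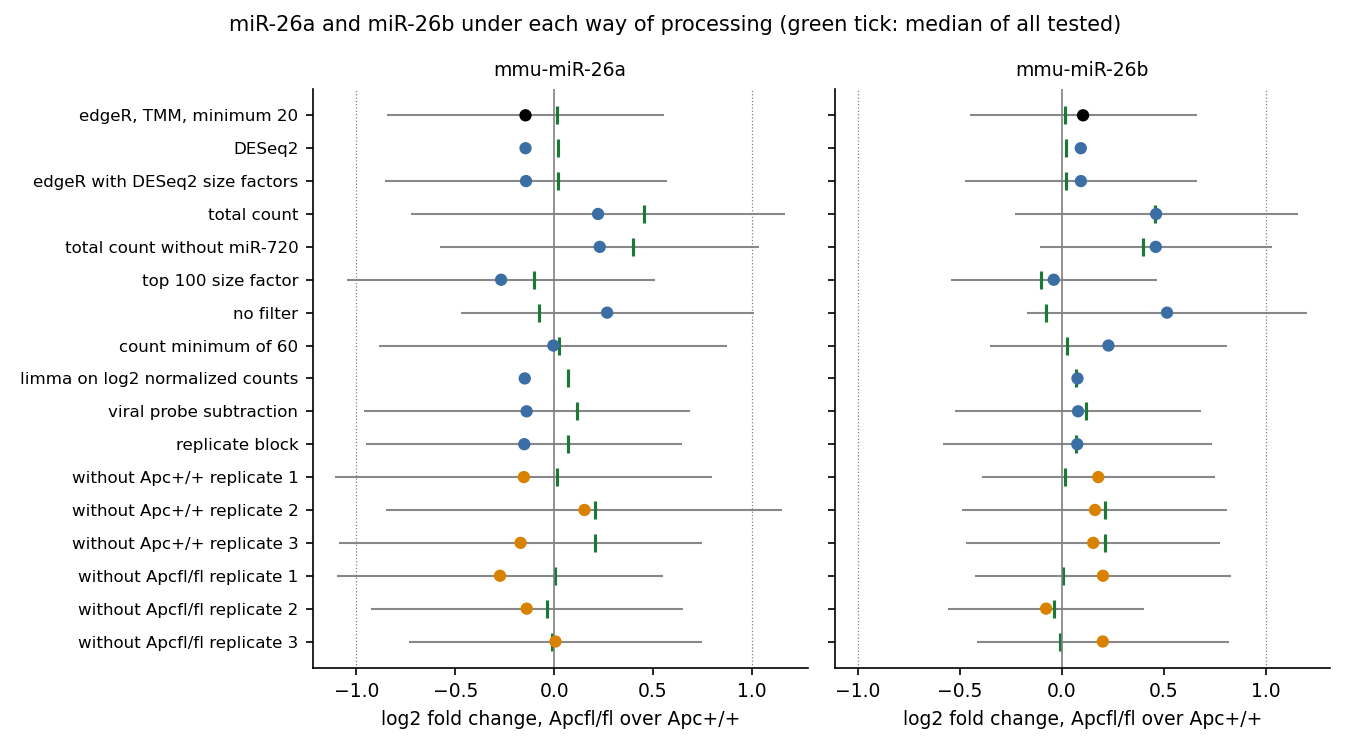
Log2 fold changes of miR-26a and miR-26b (Apcfl/fl over Apc+/+) under each way of processing, with 95% confidence intervals where the test gives one. Black marks the reported value, blue other processing, orange 1 liver left out and the green tick the median of all tested miRNAs. The values lie between -0.27 and 0.27 for miR-26a and between -0.08 and 0.51 for miR-26b.

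Comparing the members within a liver needs no scaling between livers. The counts of miR-26a were 0.213, 0.315 and 0.206 times those of miR-26b in the Apc+/+ livers. In the Apcfl/fl livers this ratio was 0.277, 0.169 and 0.184. Apc+/+ liver 2 and Apcfl/fl liver 1 had the highest ratios, and the genotypes overlapped. The log2 ratio was -2.06 ± 0.34 in Apc+/+ and -2.29 ± 0.38 in Apcfl/fl liver (SD, n = 3 each). The difference was -0.23, with a 95% interval of -1.05 to 0.59 taken from the variation among the livers, and the two-sided exact permutation test gave p = 0.5. This difference was -0.033 without Apc+/+ liver 2, -0.089 without Apcfl/fl liver 2 and -0.45 without Apcfl/fl liver 1. The probes may differ in efficiency, so the ratio itself is not a ratio of molecules.

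Together the members made up 0.682%, 0.577% and 0.380% of the mouse miRNA counts in the Apc+/+ livers. In the Apcfl/fl livers the pair made up 0.734%, 0.804% and 0.648%. Apcfl/fl liver 3 lay below Apc+/+ liver 1, and the lowest share belonged to Apc+/+ liver 3, the liver in which miR-720 took 33% of the counts. For that share the exact binomial 95% interval was 0.347% to 0.414%, and for the highest share 0.750% to 0.860%, which cover counting error only. The shares were 0.546% ± 0.153 and 0.729% ± 0.0778 (SD, n = 3 each), which the two-sided exact permutation test did not separate (p = 0.2). With miR-720 left out of the total, the difference in log2 share was 0.42, beside 0.45 with it. As TMM-normalised counts the pair summed to 665 ± 46.1 and 692 ± 163 (SD, n = 3 each; two-sided exact permutation test, p = 0.9).

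By mean normalised count miR-26b took place 28 and miR-26a place 72 among the 566 mouse probes. MiR-26b (555 ± 103, SD over 6 livers) stood between miR-30a (592 ± 119) and miR-15a (461 ± 98.3). MiR-26a (123 ± 24.4) stood between miR-340-5p (124 ± 38.8) and miR-191 (117 ± 24.6). Each member lay within 1 SD of both its neighbours. Within single livers the place of miR-26b ran from 24 to 34 and that of miR-26a from 60 to 88. The order is one of probe counts, which depend on each probe's efficiency, and not of molecules.

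The levels of the pair contrast with that of miR-122, the main miRNA of hepatocytes. MiR-122 stood at 21193, 31945 and 36463 normalised counts in Apc+/+ mice and at 6016, 11334 and 10122 in Apcfl/fl mice, with no overlap. On the log2 scale its fitted value was -1.71 ± 0.34 (standard error), at an adjusted p of 0.056 in edgeR. For each count of miR-26b there were 36.0, 63.8 and 70.7 counts of miR-122 in Apc+/+ mice, and 12.1, 15.1 and 21.2 in Apcfl/fl mice. The log2 ratio of miR-26b to miR-122 was -5.77 ± 0.52 in Apc+/+ and -3.97 ± 0.41 in Apcfl/fl liver (SD, n = 3 each). It was higher in Apcfl/fl liver by 1.80 (95% interval 0.73 to 2.86) without overlap, at p = 0.1 in the two-sided exact permutation test. The log2 ratio of miR-26a to miR-122 was higher by 1.57 (95% interval 0.12 to 3.02), from -7.83 ± 0.53 to -6.26 ± 0.73 (SD, n = 3 each), again without overlap and at an exact permutation p of 0.1. Without Apc+/+ liver 3 this second difference was 1.27, at an exact permutation p of 0.2. Both ratios were computed with the low counts of miR-122 in Apcfl/fl liver already known, and a p of 0.1 is the smallest this design can give. The other hepatocyte markers had smaller fitted values, at -0.39 for miR-192 and -0.52 for miR-194 on the log2 scale.

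**Figure D4:**
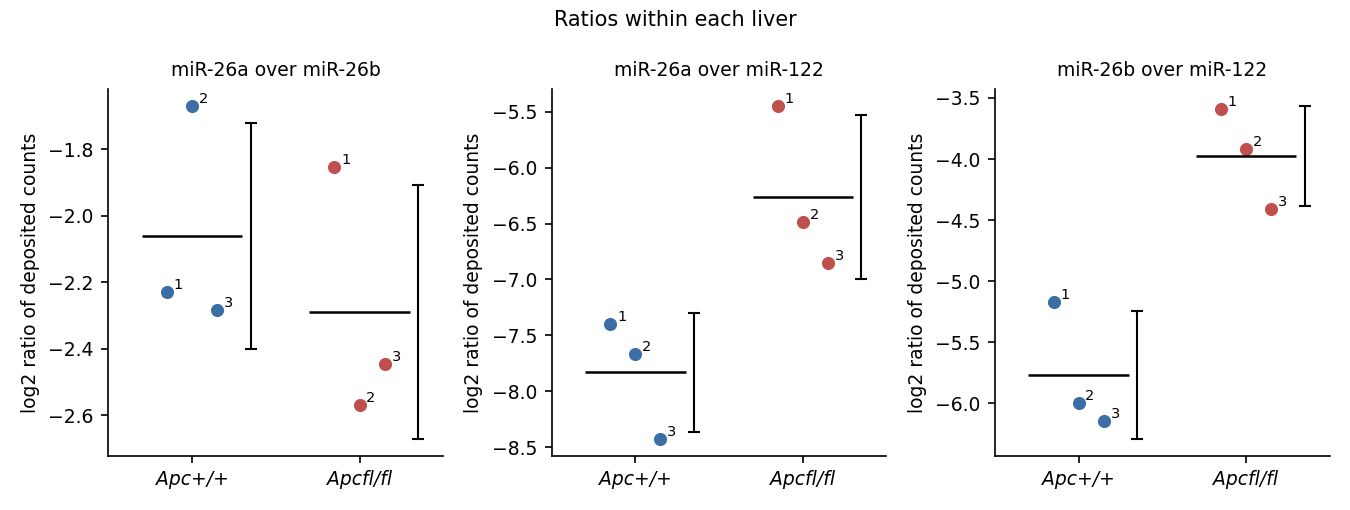
Log2 ratios of deposited counts within each liver, with points numbered by replicate, means as horizontal lines and the SD of 3 livers as a bar beside the points. The ratio of miR-26a to miR-26b overlaps between the genotypes, and both ratios to miR-122 are higher in all 3 Apcfl/fl livers.

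Other miRNAs that are described as liver tumour suppressors gave a frame for the pair. A list of 23 without the miR-26 family was written from general knowledge, with earlier results of these data known. Of these, 21 had enough counts to be tested, and in the fit 16 had a value below and 5 above 0. In edgeR's test 0 lower and 0 higher had an adjusted p-value under 0.05. At an unadjusted p-value under 0.05 there were 8 lower and 2 higher, beside 10.9% lower and 13.8% higher among all tested miRNAs. The median log2 fold change of the list was -0.46, beside 0.01 over all tested miRNAs. With the total count as library size it was -0.08, and relative to the median of all miRNAs it was then -0.53, beside -0.47 with TMM scaling. With no filter the list median was -0.042, which lay 0.036 above the median of all miRNAs (-0.079). The normalised counts of 13 of the 21 did not overlap between the genotypes, beside 33.3% of all tested miRNAs.

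The 4 smallest p-values on this list belonged to miR-122 and to miR-148a, miR-145 and let-7g, all with values below 0. MiR-148a, a hepatocyte miRNA that targets DNA methyltransferases, went from 3661 ± 368 to 1476 ± 256 normalised counts (SD, n = 3 each; log2 fold change -1.31). MiR-145, a miRNA of smooth muscle and stromal cells, went from 619 ± 136 to 187 ± 66.2 (log2 fold change -1.72). The let-7 member let-7g went from 2549 ± 95.8 to 1363 ± 284 (log2 fold change -0.90). For each of these the adjusted p-value was 0.056 in edgeR's test, as for miR-122, and the genotypes did not overlap. Within the 21 listed miRNAs and the 2 members, miR-26b had the smallest absolute fold change and miR-26a the third smallest. Other listed miRNAs had values above 0. MiR-125a-5p was at 1.58 and miR-223 at 1.43 on the log2 scale (adjusted p = 0.064 and 0.072 in edgeR's test), and of the let-7 family let-7a was at -0.82 while let-7b was at 0.50 and let-7c at 0.31. MiR-125b-5p was at -0.95 (adjusted p = 0.056 in edgeR's test), and its normalised counts did not overlap between the genotypes. MiR-101a and miR-101b, which like miR-26a are known to target Ezh2, were at -0.80 and -0.60 (adjusted p = 0.16 for both in edgeR's test). The miRNAs of this list other than the 4 with the smallest p-values were named after their values had been seen. Whether the response of the miR-26 pair differs from that of the list was not tested.

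**Figure D5:**
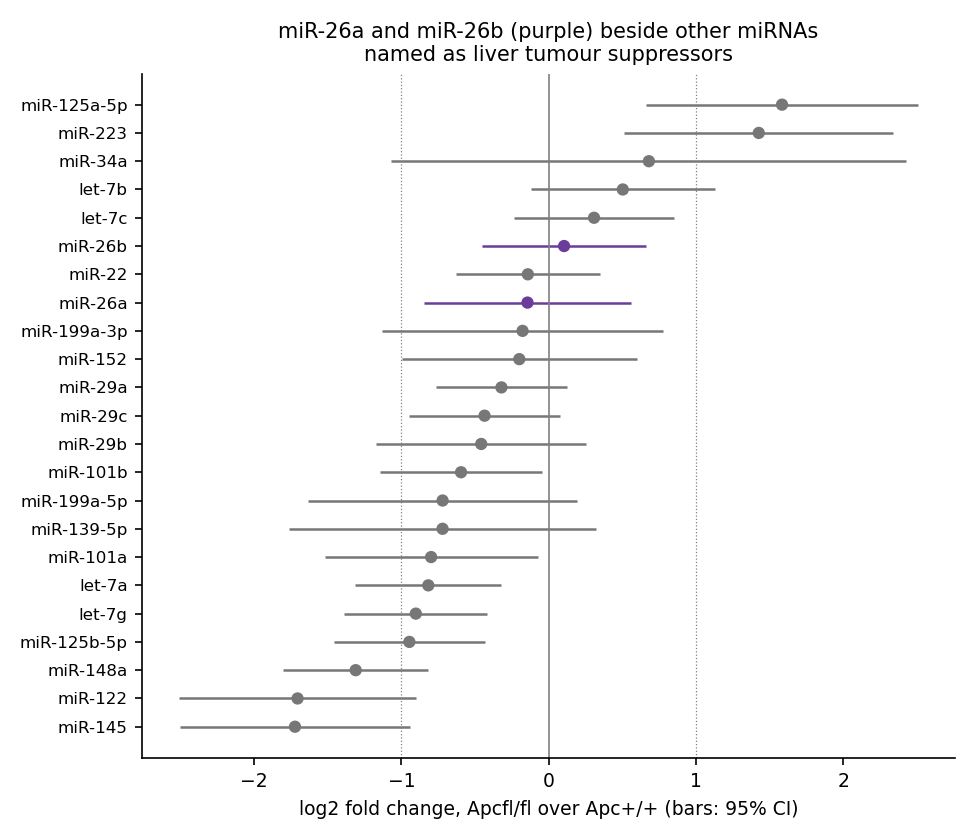
Log2 fold changes (Apcfl/fl over Apc+/+) with 95% confidence intervals for miR-26a and miR-26b (purple) and the 21 tested miRNAs of the liver tumour suppressor list (grey), ordered by value. Dotted lines mark 2-fold changes. The pair sits near 0, at -0.14 and 0.10, between miR-145 at -1.72 and miR-125a-5p at 1.58.

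The members showed little likeness in their pattern over these livers, which are too few to tell whether they share one. Their log2 normalised counts correlated with a Pearson r of 0.19 over the 6 livers, which placed miR-26b at 56 among the 173 other tested miRNAs in likeness to miR-26a, and miR-26a at 72 in likeness to miR-26b. Correlations over these 6 livers, which share 1 scaling, are a description only and carry no p-value, since the leading ones were picked from 173. Most like miR-26a were miR-676 (r = 0.88), miR-574-3p (0.82), miR-30e (0.78), miR-742 (0.77) and miR-128 (0.76). Of these 5, miR-574-3p and miR-30e exceeded the limit set by viral probes in each of the 6 livers.

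Most like miR-26b were miR-2183 (r = 0.96), miR-144 (0.95), miR-376a (0.92), miR-541 (0.89) and miR-495 (0.88). All 5 had their highest normalised count in Apcfl/fl liver 2, as miR-26b itself did, and 4 of them passed the viral probe limit in no more than 2 livers. MiR-376a, miR-541 and miR-495 belong to the imprinted Dlk1-Dio3 cluster. MiR-376a stood at the lowest value of 1 count in every liver but Apcfl/fl liver 2, where it had 169.33 counts, so its likeness rests on a single liver. MiR-541 and miR-495 likewise exceeded the viral probe limit in that liver alone, at 110.33 and 365 counts. MiR-2183 exceeded it there and in Apc+/+ liver 1, and had 1 count in each of the others. MiR-144 was well counted throughout. This miRNA of erythroid cells stood at 310, 212 and 287 normalised counts in Apc+/+ mice and at 177, 652 and 220 in Apcfl/fl mice.

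Erythroid miRNAs were high in the same liver. The list of blood cell markers held 7 miRNAs, of which 5 or 6 were above the viral probe limit in each liver and miR-142-5p was at the lowest value of 1 count in all. Their normalised counts summed to 1180 to 1642 in the Apc+/+ livers, and to 1038, 4867 and 1798 in the Apcfl/fl livers. Most of the sum in Apcfl/fl liver 2 was the erythroid miR-451, at 3806. The erythroid miR-144 and miR-486 also had their highest normalised counts there, with miR-486 at 103 against 18.5 to 46.3 in the other livers. The leucocyte miRNAs did not: miR-142-3p was at 74.1 in that liver and 186 in Apcfl/fl liver 3, miR-223 at 156 and 301, and miR-150 at 74.5 and 111. The part of blood cells in the high value of miR-26b in that liver was not tested. Without that liver the fitted log2 change of miR-26b was -0.08.

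Markers of other cell types were summed in the same way. Taken singly, 2 of the 4 tested mesenchymal, 1 of 2 endothelial, 3 of 3 hepatocyte, 1 of 4 bile duct and 1 of 6 blood cell miRNAs did not overlap between the genotypes, beside 33.3% of all tested miRNAs. The bile duct miRNA was miR-31, at 39.2 ± 11.9 and 12.9 ± 6.75 normalised counts (SD, n = 3 each; adjusted p = 0.12 in edgeR's test), and the blood cell miRNA was miR-223, at 71.8 ± 5.50 and 193 ± 95.5 (SD, n = 3 each; adjusted p = 0.072 in edgeR's test). In the fit 1 tested bile duct miRNA, miR-31, had a value below 0 and 3 had values above 0. On the log2 scale these were miR-200a at 0.34, miR-200b at 0.33 and miR-429 at 0.74. The 5 mesenchymal miRNAs summed to 894 to 1318 normalised counts in Apc+/+ and to 322 to 725 in Apcfl/fl liver. Singly, miR-143 and miR-145 did not overlap, with log2 fold changes of -1.13 and -1.72. MiR-199a-3p (-0.18) and miR-199a-5p (-0.72) overlapped between the genotypes. The 2 strands of miR-126, an endothelial miRNA, summed to 3585 to 3807 and to 2764 to 3552. The more heavily counted strand, miR-126-3p, overlapped between the genotypes, at 3075 to 3310 and 2475 to 3182. The 3 hepatocyte miRNAs summed to 24535 to 39607 and to 8151 to 13945. Most of this sum in every liver was miR-122, at 21193 to 36463 and 6016 to 11334. The sum of the bile duct markers overlapped between the genotypes, at 108 to 194 and 92.9 to 223 over 6 miRNAs, 2 of which, miR-141 and miR-200c, exceeded the limit from viral probes in no liver. The part of these cell types in the values of miR-26a and miR-26b was not tested.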

How the data were processed

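The authors deposited estimated counts per NanoString probe, not scaled between samples. In 584 of the 584 probes with at least 2 values above 1, those values shared a decimal part, as a constant taken from or added to each probe would leave, a step that no source used here describes, and 12.4% of all values stood at a floor of 1. Software and genome build are not given in the sources used here. Genotype and replicate number came from the sample titles (0 value columns without a sample).

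Counts were rounded, and mouse miRNAs with a mean of at least 20 counts were compared with edgeR 4.0.16 in R 4.3.3 (quasi-likelihood test, TMM over the tested miRNAs, prior count 2, Benjamini-Hochberg adjustment over all miRNAs tested). Alternatives used DESeq2 1.42.0, limma 3.58.1, other scalings and filters, viral probe subtraction, a replicate block and each liver left out. Normalised counts were scaled to the mean effective library size of 105216. Single values were compared with two-sided exact permutation tests. The procedure was tested on simulated data.

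Named miRNAs were the members, their neighbours in abundance, the 5 most like each member, miR-122, and up to 4 of the tumour suppressor list with the smallest p-values. Members of the cell type marker lists and other miRNAs of the tumour suppressor list were named after their values were seen. Members and lists were chosen with earlier results of these data known, and the ratios to miR-122 were added after the data were seen. Sequences came from RefSeq tables of GRCm38.p6. Livers of 1 genotype differed beyond counting noise in every pair (chi-square over its degrees of freedom 17.2 to 89.1), so all 6 were counted.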

Additional observations from a re-analysis of the deposited data

How the results depend on the processing

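Neither miR-26a nor miR-26b reached an adjusted p-value under 0.05 under any of 16 alternatives. The log2 fold change of miR-26a (-0.14) was above 0 with the total count as library size (0.22), with the total count without miR-720 (0.23) and with no filter (0.27). It ranged from -0.27 to 0.15 with 1 liver left out. MiR-26b (0.10) was below 0 with the top 100 size factor (-0.040). Leaving out 1 liver gave -0.077 to 0.20, below 0 without Apcfl/fl replicate 2. With no filter it was 0.51, where the median of all 566 miRNAs was -0.08. The causes were not tested. The ratio of miR-26a to miR-26b, the share of the pair and both ratios to miR-122 kept their direction with viral probe subtraction and with each liver left out. The ratios to miR-122 were run under these alternatives only. The difference in log2 ratio of the pair (-0.23) was -0.033 without Apc+/+ replicate 2, -0.089 without Apcfl/fl replicate 2 and -0.45 without Apcfl/fl replicate 1. The difference in log2 share (0.45) was 0.04 with TMM-normalised counts and 0.21 without Apc+/+ replicate 3.

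The median of the tumour suppressor list (-0.46) was -0.077 with the total count, -0.083 with the total count without miR-720 and -0.042 with no filter, and from -0.61 to -0.32 with 1 liver left out. These list alternatives and those of the miR-122 ratios were chosen after seeing the data.

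Livers with the same number did not deviate together (correlations -0.06, -0.06 and 0.12), so the numbers were taken as names without pairing. With the replicate number as a block, miR-26a was at -0.15, miR-26b at 0.08, the difference in log2 ratio of the pair at -0.23 and in log2 share at 0.45, and an adjusted p-value under 0.05 was reached by 3 lower and 4 higher miRNAs, against 0 and 0. These numbers were 9 and 20 under DESeq2, 3 and 1 under its size factors, 1 and 16 for library sizes from the total count, 3 and 18 when that total left out miR-720, 6 and 1 for the top 100 size factor, 6 and 12 with a count minimum of 60, 7 and 4 with viral probe subtraction, 0 and 0 with limma and with no filter, and up to 8 and 11 with 1 liver left out. At 86.33 to 153.33 counts, counting error limits miR-26a more than miR-26b.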
